A study of Mus musculus with 12 samples.

Results

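The 8 genes described here regulate how much mitochondrion a cell makes. They are Ppargc1a, Ppargc1b, Perm1 (named 2310042D19Rik on the array), Tfam, Nrf1, Gabpa, Tfb1m and Tfb2m. The 8 genes were chosen with earlier results of these data known. All their probes were then taken by gene name from the array files, whatever their levels. They are 8 of 27597 gene names on the array, and the array holds 19 probes for them among 41174. All 19 probes are shown separately. A probe was tested when it was well above background, by the scanner software's own mark, on at least 4 of the 12 arrays. This held for 18 of the 19 probes, and 17 were well above background on all 12 arrays.

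The kidneys of 4 mice were used, of which mice 1 and 3 were female and mice 2 and 4 male. From a suspension of tubules of each mouse, a COPAS instrument, a flow sorter for large particles, collected the distal convoluted tubules (DCT), which carried the green fluorescent protein EGFP, the tubules that did not, and a total fraction. These fractions are called EGFP+, EGFP- and ALL, with n = 4 mice in each and 12 arrays in all. What drives EGFP, and the strain and age of the animals, were not stated in the labels used here, and no treatment is named for any group. All levels are log2 processed signals minus the 75th percentile of their array, so 0 is the array's upper quartile. A level belongs to its probe and is not compared with that of another probe.

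The labels were checked against tubule markers. Slc12a3, the thiazide target and defining transporter of the DCT, stood 331-fold above its EGFP- level in EGFP+ tubules. The summed linear level of 5 DCT markers, in units of the array's upper quartile, was 389 to 500 in EGFP+, 77.5 to 119 in ALL and 22.0 to 33.9 in EGFP- tubules. The EGFP- fraction carried proximal tubule markers: of 9 proximal markers, 8 were lower in EGFP+ and 1 was not past the threshold, and the 5 with a value on every array summed to 1.59 to 4.65 in EGFP+ and 83.8 to 96.3 in EGFP- tubules, with none of the 5 below background on all arrays of a fraction. Markers of the neighbouring segments moved too. Of 5 markers of the thick ascending limb, 4 were higher in EGFP+, by 4.20 (Casr), 1.93 (Umod), 1.58 (Cldn16) and 0.75 (Slc12a1) on the log2 scale, and Cldn10 was lower (-5.05). For Casr, 1 of the 4 EGFP- spots was not well above background, and Umod had 3 ALL arrays with a value. The 4 markers without Umod summed to 25.4 to 33.2 in EGFP+ and 39.1 to 47.2 in EGFP- tubules. Of these 4, only Cldn10 was lower in EGFP+, with a mean level of -0.46 against 4.59 in EGFP-. Umod, left out for its missing ALL array, averaged 7.84 in EGFP+ and 5.91 in EGFP-, so this sum is not that of all 5 markers. Of 7 collecting duct markers, 2 were higher (Atp6v1b1 4.03-fold and Scnn1b 2.06-fold), 4 were lower and 1 was not past the threshold, and they summed to 22.3 to 31.6 in EGFP+ and 63.0 to 73.8 in EGFP- tubules. The part of all these markers in the results below was not tested. In sorted tubules, fewer cells of a type and less RNA per cell cannot be told apart.

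Mitochondrial biogenesis is run from the nucleus. The coactivators PGC-1alpha (Ppargc1a) and PGC-1beta (Ppargc1b) bind no DNA themselves. They are recruited by nuclear receptors, chiefly the estrogen-related receptors, and by nuclear respiratory factor 1 (Nrf1) and GA-binding protein (Gabpa is its DNA-binding subunit), and they switch on genes of the respiratory chain and of the mitochondrial DNA machinery. Perm1 is a regulator downstream of PGC-1 and the estrogen-related receptors that was described in muscle. Tfam packages mitochondrial DNA and, with Tfb2m and the mitochondrial RNA polymerase, starts its transcription, while Tfb1m methylates the small ribosomal RNA of the mitochondrion. The DCT reabsorbs sodium chloride with a dense supply of mitochondria along its basolateral membrane.

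The sequences that follow belong to the genes on which the results turn. The first pair are the 60-base array probes of Perm1, the gene with the largest difference, which were both designed on the same transcript.
A_51_P322473: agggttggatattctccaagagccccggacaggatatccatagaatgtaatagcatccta
A_52_P542502: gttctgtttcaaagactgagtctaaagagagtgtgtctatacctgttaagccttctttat
The next are the 250 bases before the transcription start of Perm1 and Ppargc1a, from RefSeq on GRCm38.p6, each given along the strand of its gene. Perm1 lies on the plus strand at chr4:156215677-156215926 and Ppargc1a on the minus strand at chr5:51567726-51567975. Capitals mark AAGGTCA, the core site read by estrogen-related receptors, on either strand.
Perm1: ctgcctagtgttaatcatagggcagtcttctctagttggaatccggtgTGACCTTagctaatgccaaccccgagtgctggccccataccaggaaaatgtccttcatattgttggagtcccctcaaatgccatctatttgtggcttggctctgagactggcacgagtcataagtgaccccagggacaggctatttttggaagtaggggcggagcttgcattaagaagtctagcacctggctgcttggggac
Ppargc1a: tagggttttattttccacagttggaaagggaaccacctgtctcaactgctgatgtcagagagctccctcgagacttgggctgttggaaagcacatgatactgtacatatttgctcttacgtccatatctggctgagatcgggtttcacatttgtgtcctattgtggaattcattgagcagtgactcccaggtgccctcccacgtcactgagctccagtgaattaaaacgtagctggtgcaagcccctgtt
The last pair concern Tfam, of which 1 probe scattered more than the others. Its probe A_52_P595104, designed on another transcript record than the other Tfam probes, was compared with the 250 bases before the Tfam start (minus strand, chr10:71238045-71238294), where capitals mark the stretch that it matches.
A_52_P595104: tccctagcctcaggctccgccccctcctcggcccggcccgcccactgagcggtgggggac
Tfam: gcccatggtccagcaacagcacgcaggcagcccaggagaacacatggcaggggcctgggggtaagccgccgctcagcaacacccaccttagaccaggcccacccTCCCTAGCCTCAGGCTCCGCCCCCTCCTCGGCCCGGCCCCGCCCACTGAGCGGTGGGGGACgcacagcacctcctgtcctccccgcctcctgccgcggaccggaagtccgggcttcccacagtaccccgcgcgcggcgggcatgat
All 60 bases of the probe matched, with a gap of 1 base, a stretch of 61 bases that runs from 146 to 86 bases upstream of the RefSeq start. This stretch lies outside the transcript that begins at that start.

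A RefSeq promoter window of 300 bases, 250 before and 50 after the start, was scanned for 7 of the 8 genes, with 8 windows in all. Ppargc1b was left out of the scan, so nothing is known here of motifs in its promoter. On either strand, AAGGTCA was found in the window of 1 gene, Perm1, beginning 202 bases upstream, and in 4.72% of all 32851 windows. CCGGAAG, read by GA-binding protein, was found in Tfam, 47 bases upstream, and in Gabpa itself, 93 bases upstream, and in 8.86% of all windows. GCGCANGCG, read by Nrf1, was found in Tfb2m, after the start, and in 6.25% of all windows. AAGATGG, read by YY1, was found in Gabpa and in 6.34% of all windows, GGGCGG, read by Sp1, in 5 of the genes (Tfb2m, Perm1, Nrf1, Tfam and Tfb1m) and in 35.7%, and TGACGTCA, the cyclic AMP element, in 0 of the 7 genes and in 1.79%. Matches of different motifs did not overlap in these windows. A match is a string of letters in the reference and not a measured binding site.

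The coactivators and Perm1 were higher in distal convoluted tubules, and the nuclear factors and mitochondrial transcription factors were not past the threshold. In EGFP+ against EGFP- tubules, 7 of the 18 tested probes passed an adjusted p of 0.05 in the limma fit, all 7 of them higher, and these were every tested probe of Ppargc1a, Ppargc1b and Perm1. Among all 25819 probes tested, 56.7% passed in this comparison and 32.8% passed as higher, so a call by itself is common here. The 11 tested probes of the other 5 genes had differences from -0.69 to 0.26 on the log2 scale, with adjusted p of 0.12 to 0.852. Their 95% intervals together ran from -1.57 to 0.64. The lower end came from Tfam A_52_P595104 alone, and the next lowest limit was -0.58 (Gabpa A_52_P126238). For each probe, a change inside its own interval was not excluded. The EGFP+ arrays lay wholly above the EGFP- arrays for the same 7 probes, and among all probes with a value on every array of both groups 54.5% did not overlap. Of the 7, Perm1 A_52_P542502 was well above background only on EGFP+ arrays and entered the test through them. Its call and its lack of overlap therefore add no support.

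**Figure D1:**
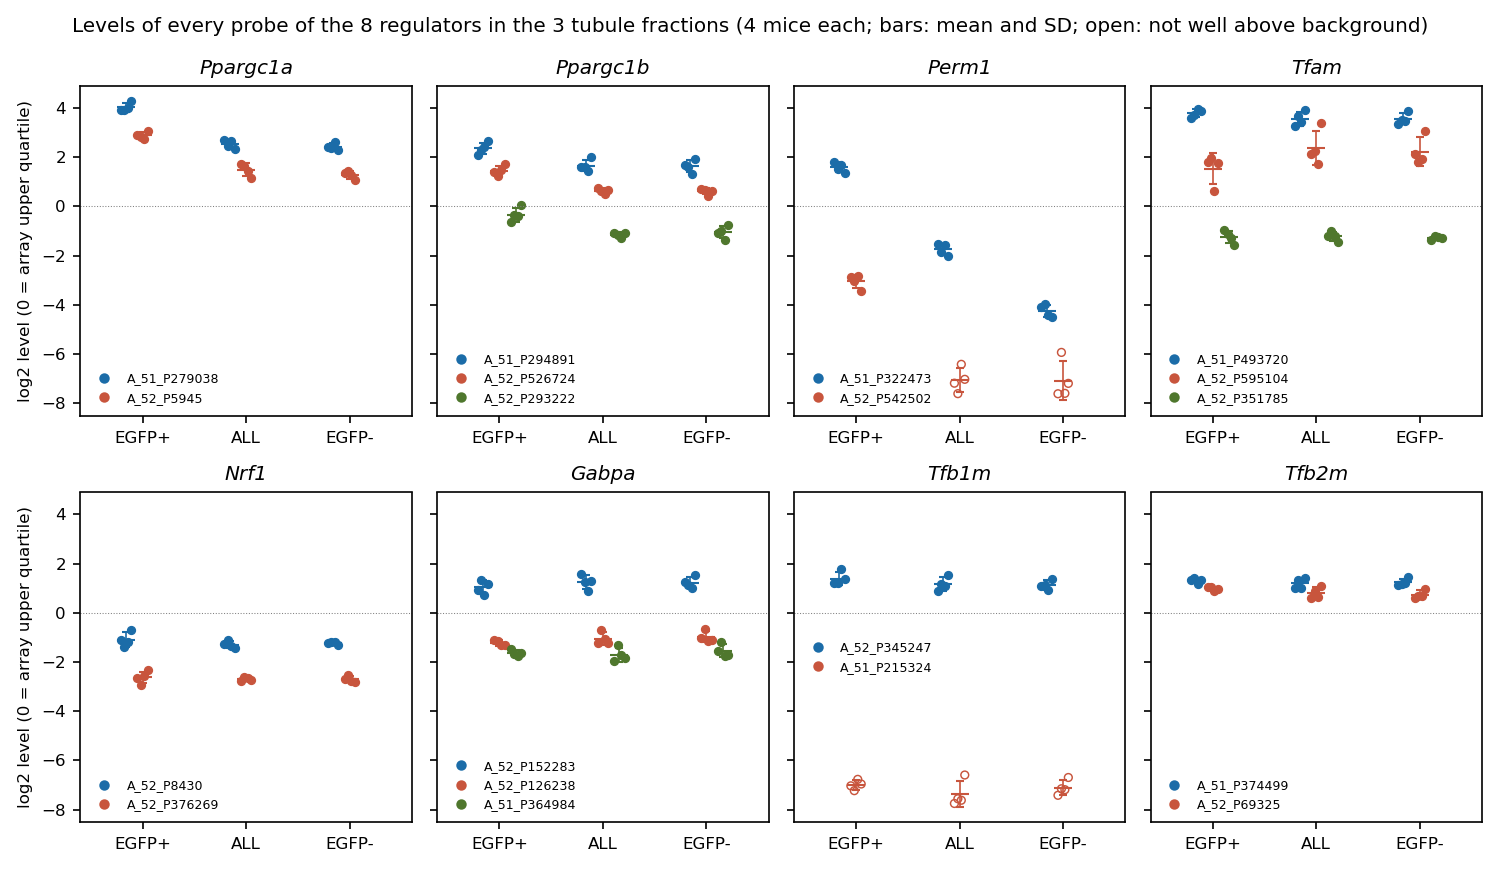
Log2 level of each probe (vertical axis, 0 is the array's upper quartile) in EGFP+, ALL and EGFP- tubules, with 1 panel per gene, 1 point per mouse, the mean and SD (n = 4) as bars, and open points where the spot was not well above background. Ppargc1a, Ppargc1b and Perm1 step up in EGFP+, while the EGFP+ and EGFP- points of the other 5 genes overlap.

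Ppargc1a, the coactivator that responds to energy demand, has 2 probes that lie within 2091 bases of each other on chromosome 5 (51743906 to 51745996 on the minus strand, in the mm8 build of the array). For A_51_P279038, the EGFP+ levels of mice 1 to 4 were 3.90, 3.90, 4.01 and 4.28. The ALL levels were 2.68, 2.46, 2.67 and 2.35, and the EGFP- levels 2.41, 2.36, 2.62 and 2.28. All EGFP+ arrays were above all others, and the ALL and EGFP- arrays overlapped. The difference of EGFP+ from EGFP- was 1.61 ± 0.13 (SE), a 3.05-fold rise with a 95% confidence interval of 2.50 to 3.72 (adjusted p = 6.96e-07). For A_52_P5945 the EGFP+ levels were 2.91, 2.82, 2.75 and 3.07, and the EGFP- levels 1.36, 1.42, 1.26 and 1.06. This probe gave the same difference, 1.61 ± 0.14 (adjusted p = 1.64e-06). Against the ALL fraction, which contains DCT, the differences were 1.49 ± 0.13 and 1.39 ± 0.14 (adjusted p = 1.74e-06 and 6.88e-06). Mouse 4 showed the largest difference from EGFP- on both probes, 2.01 on each, against 1.39 to 1.54 in the other 3 mice. Within the 3 slides the difference of A_51_P279038 was 1.50, 1.65 and 1.84, and with slide as a block it was 1.63.

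Ppargc1b, the second PGC-1 coactivator, rose by about the same amount on each of its 3 probes, which span 6192 bases of chromosome 18 (61421904 to 61428095, minus strand, mm8). On A_51_P294891 the EGFP+ levels of mice 1 to 4 were 2.10, 2.29, 2.42 and 2.64, the ALL levels 1.60, 1.61, 1.43 and 1.99, and the EGFP- levels 1.69, 1.61, 1.31 and 1.92. The lowest EGFP+ array stood just above the highest EGFP- array, so the gap between the groups was small. Its difference was 0.73 ± 0.17 (adjusted p = 0.00296), a 1.66-fold rise with an interval of 1.28 to 2.15. The other probes gave 0.84 ± 0.12 for A_52_P526724 (adjusted p = 9.43e-05) and 0.72 ± 0.16 for A_52_P293222 (adjusted p = 0.00260). Each probe was higher in EGFP+ in 4 of 4 mice, with differences between 0.41 and 1.11. Against ALL the 3 differences were 0.70, 0.82 and 0.82, with adjusted p of 0.00417, 0.000133 and 0.00117. Within slides, A_51_P294891 differed by 0.51, 0.81 and 1.02, and by 0.79 with slide as a block.

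Perm1 had the largest difference of the 8 genes. Its brighter probe, A_51_P322473, was well above background on all 12 arrays, at 1.79, 1.54, 1.70 and 1.36 in EGFP+ tubules of mice 1 to 4. It was at -1.54, -1.88, -1.56 and -2.02 in ALL and at -4.10, -3.98, -4.43 and -4.51 in EGFP- tubules. The 3 fractions did not overlap anywhere, and ALL lay between the other two. The EGFP+ level exceeded the EGFP- level by 5.85 ± 0.16, which is 57.6-fold with an interval of 44.9 to 73.9 (adjusted p = 8.31e-10), and the ALL level by 3.35 ± 0.16 (adjusted p = 2.33e-08). The differences from EGFP- within slides were 5.76, 5.68 and 5.83, and 5.75 with slide as a block.

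The second Perm1 probe, A_52_P542502, was well above background only on the 4 EGFP+ arrays, at -2.88, -3.02, -2.85 and -3.42, and on 0 of the 4 arrays of either other fraction. It entered the test only through the group in which it was high, so its call adds no support. Its fold is a lower bound, set against the dimmest signal well above background on each array. By this bound Perm1 was at least 4.86-fold higher than in EGFP- and at least 5.91-fold higher than in ALL tubules. Both bounds, 2.28 and 2.56 on the log2 scale, rest on the scanner software's background subtraction. With another background correction (normexp) the fitted differences were 1.92 and 1.01, smaller than the bounds. That correction added an offset of 50 to every signal, while the processed EGFP+ signals of this probe were 109 to 280. Such an offset shrinks the differences of dim probes, so this run cannot decide whether the bounds hold.

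ALL and EGFP- tubules were compared because ALL still contains DCT. Only 1 of the 18 member probes passed in this comparison, Perm1 A_51_P322473, higher in ALL by 2.50 ± 0.16 (adjusted p = 1.73e-05), against 1.08% of all probes tested. Its arrays did not overlap, which was true of 2.56% of all probes. The Ppargc1a probes differed by 0.12 ± 0.13 and 0.22 ± 0.14 and the Ppargc1b probes by -0.10 to 0.03, all with an adjusted p of 1. Both Ppargc1a probes were higher in ALL in 4 of 4 mice, by 0.05 to 0.27 and by 0.09 to 0.36. Neither passed in any alternative run, the one with the mouse as a block included. For EGFP+ against ALL, 7 of 18 member probes passed, as against 54.0% of all probes (31.1% as higher), and the same 7 did not overlap, against 51.1%. Perm1 A_52_P542502 is among these 7 and adds no support here either. The comparison of EGFP+ with ALL shares its EGFP+ arrays with the one against EGFP-. Of the probes called between EGFP+ and ALL, 57.6% were higher in EGFP+, or 67.7% when each array was centred on its median.

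**Figure D2:**
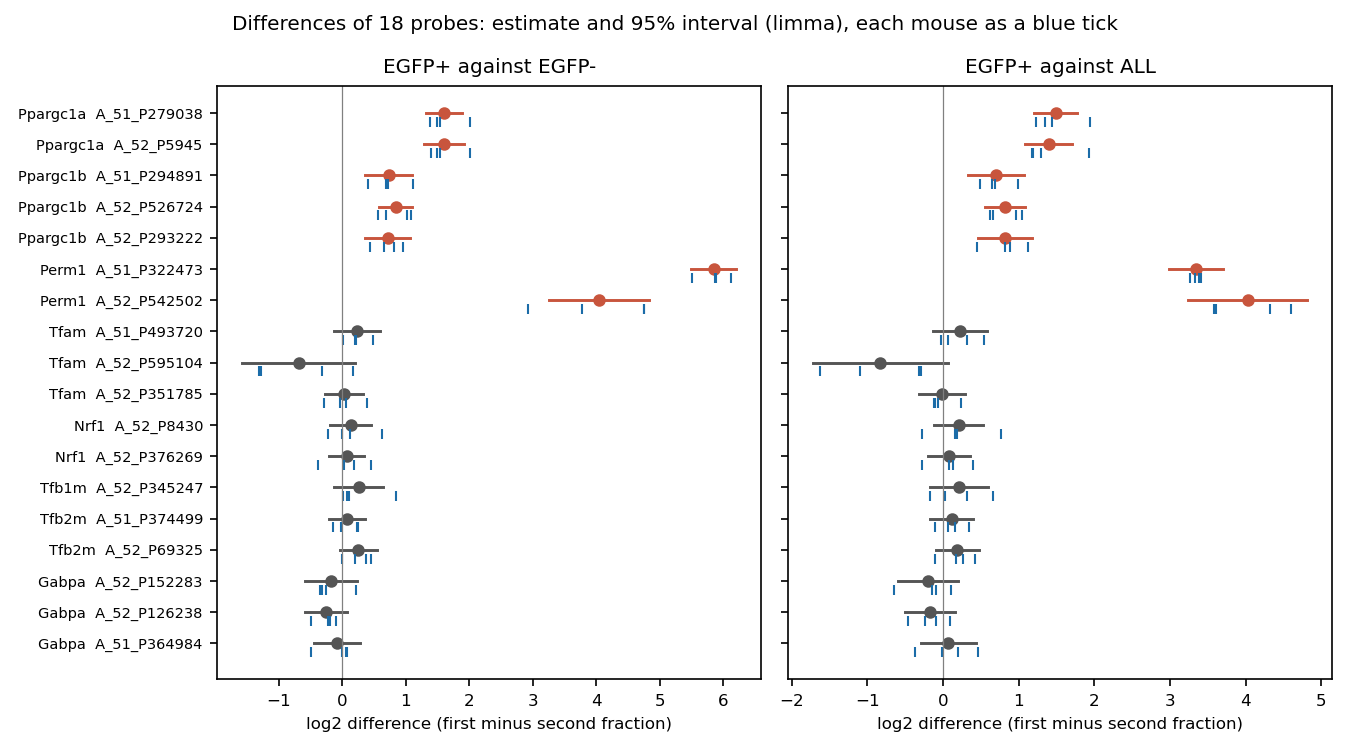
Log2 difference of 18 member probes (horizontal axis) for EGFP+ minus EGFP- and EGFP+ minus ALL, with the limma estimate as a point, its 95% interval as a line and each mouse as a blue tick. The 7 probes past the threshold (red) are those of Ppargc1a, Ppargc1b and Perm1, from 0.72 to 5.85 against EGFP-, with Perm1 A_52_P542502 set against signals at background, and the 11 others (grey) lie between -0.69 and 0.26.

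Nrf1, the respiratory factor that binds promoters of nuclear genes for mitochondrial proteins, has 2 probes 36440 bases apart on chromosome 6 (30066151 to 30102590, plus strand, mm8). The EGFP+ levels of A_52_P8430 in mice 1 to 4 were -1.10, -1.39, -1.18 and -0.68, and the EGFP- levels were -1.23, -1.17, -1.17 and -1.31. The groups overlapped, and mouse 4 had the largest difference, 0.63. The differences were 0.13 ± 0.15 (interval -0.19 to 0.45) and 0.07 ± 0.13 (interval -0.21 to 0.34), and the adjusted p were 0.46 and 0.663.

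Gabpa, the DNA-binding subunit of GA-binding protein, has 3 probes within 3191 bases of chromosome 16 (84743038 to 84746228, plus strand, mm8). A_52_P152283 read 0.94, 1.34, 0.74 and 1.19 in EGFP+ and 1.27, 1.12, 0.99 and 1.54 in EGFP- tubules of mice 1 to 4, with overlap. The 3 differences were -0.18 ± 0.18, -0.25 ± 0.15 and -0.09 ± 0.17, with adjusted p of 0.436, 0.171 and 0.675, and the interval of the first was -0.58 to 0.23. The second, of A_52_P126238, was lower in EGFP+ in 4 of 4 mice, by differences of -0.10, -0.50, -0.20 and -0.22, although its groups overlapped. With the mouse as a block its adjusted p was 0.0638. The sign of the third turned with median centring and with normexp, to 0.07 in both.

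Tfam, which packages mitochondrial DNA and starts its transcription, has 3 probes over 12073 bases of chromosome 10 (70621418 to 70633490, minus strand, mm8). On A_51_P493720 the EGFP+ levels of mice 1 to 4 were 3.58, 3.72, 3.95 and 3.89, and the EGFP- levels were 3.37, 3.51, 3.46 and 3.88. EGFP+ was higher in 4 of 4 mice, but the groups overlapped and the difference of 0.23 ± 0.16 had an adjusted p of 0.252. With quantile normalization it was 0.30 and passed, with an adjusted p of 0.0343. The dim probe A_52_P351785 differed by 0.03 ± 0.14 (adjusted p = 0.852).

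The Tfam probe that matches sequence upstream of the start, A_52_P595104, had the largest SE of the 17 member probes well above background on all 12 arrays. Its EGFP+ levels were 1.81, 1.97, 0.63 and 1.75 in mice 1 to 4, its ALL levels 2.12, 2.25, 1.73 and 3.37, and its EGFP- levels 2.13, 1.79, 1.91 and 3.07. EGFP+ was lower than ALL in 4 of 4 mice and lower than EGFP- in 3 of 4, with the low value of mouse 3 in EGFP+ and the high values of mouse 4 in the other fractions standing out. The difference from EGFP- was -0.69 ± 0.41 (adjusted p = 0.170) and from ALL -0.83 ± 0.41 (adjusted p = 0.104). With the mouse as a block, which compares fractions of the same animal, both passed, with the same differences and an adjusted p of 0.0410 and 0.0192. The one from ALL also passed with slide as a block, at -0.99 (adjusted p = 0.0216). Against EGFP-, the other Tfam probes were not past the threshold with either block.

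Tfb1m and Tfb2m are related proteins, of which Tfb1m methylates mitochondrial ribosomal RNA and Tfb2m helps to start mitochondrial transcription. The Tfb1m probe A_52_P345247 (chromosome 17, 3475872 to 3475931, minus strand, mm8) read 1.19, 1.21, 1.77 and 1.39 in EGFP+ and 1.09, 1.13, 0.91 and 1.37 in EGFP- tubules of mice 1 to 4. It was higher in EGFP+ in 4 of 4 mice, with most of the difference of 0.26 ± 0.17 in mouse 3 (adjusted p = 0.222). The other Tfb1m probe, A_51_P215324, was well above background on 0 of 12 arrays and was not tested. Tfb2m has 2 probes within 1179 bases of chromosome 1 (181364779 to 181365957, minus strand, mm8). A_52_P69325 read 1.04, 1.06, 0.90 and 0.98 in EGFP+ and 0.58, 0.69, 0.70 and 0.99 in EGFP- tubules, where mouse 4 overlapped the EGFP+ arrays. Its difference was 0.26 ± 0.13 (adjusted p = 0.120), and without mouse 4 it was 0.34 and passed (adjusted p = 0.0384). The brighter Tfb2m probe differed by 0.08 ± 0.13 (adjusted p = 0.635).

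No member passed a test for sex. Of the 18 probes, 0 passed between 2 male and 2 female mice, with differences from -0.23 to 0.65 and a lowest adjusted p of 0.355, while 272 of 25818 probes (1.05%) passed over the whole array. An unadjusted p under 0.05 was found for 0 of the 18 and for 4977 of 25818 probes. Whether the difference between EGFP+ and EGFP- depended on sex was tested too, and passed for 0 of 18 member probes and 0 of all probes in limma. At an unadjusted p under 0.05 the numbers were 1 of 18 and 2947 of 25818. The 1 was Perm1 A_52_P542502, whose EGFP- values are below background. With 2 mice of each sex the intervals were wide, from -0.44 to 0.21 for Ppargc1a A_51_P279038 between males and females and from -0.64 to 0.19 for Perm1 A_51_P322473.

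The genes that work with these regulators were read from 8 lists, which were also chosen with earlier results of these data known. Each gene was read from 1 probe, namely the brightest of those tested on average. Over all 17071 genes, 32.1% were higher and 25.7% lower in EGFP+ than in EGFP- tubules, with a median difference of 0.11. Centring arrays on their median in place of the upper quartile raised the median over all probes from 0.14 to 0.30, so small differences are relative to that shift. Up to 4 genes were named per list by a fixed rule. The further genes, some past the threshold and some not, were named after their values were seen, and not every gene in a count is named.

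Of 20 tested cofactor partners, 9 rose, 2 fell and 9 missed the threshold, with a median of 0.22. Smarcd3, a chromatin remodelling subunit that PGC-1alpha recruits, was higher by 1.64 ± 0.21, Ncoa1, a coactivator, by 0.92 ± 0.14 and Kat2b, an acetyltransferase, by 0.73 ± 0.13. Mef2c, a muscle and vessel transcription factor with 1 of 4 EGFP+ spots not well above background, was lower by 2.97 on the log2 scale (-2.97 ± 0.23), and Gabpb1, the partner subunit of Gabpa, was the other lower gene (-0.53). The count of lower genes was 1 without mouse 1, without mouse 2, with quantile normalization and with median centring. Pprc1, the third member of the PGC-1 family, differed by -0.31 (adjusted p = 0.233), with 3 EGFP- arrays that gave a value.

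The nuclear receptors that PGC-1 coactivates were split. Among 14 that were tested, 2 rose, 7 fell and 5 missed the threshold, with a median of -0.89. The higher ones were both estrogen-related receptors, Esrrb at 4.44 ± 0.18 (21.7-fold, adjusted p = 3.62e-09) and Esrrg at 1.45. Esrrb was also higher in ALL than in EGFP- tubules, by 1.42 ± 0.18 (adjusted p = 0.00158). Esrra, the family member best known as the partner of PGC-1alpha, differed by -0.02 (adjusted p = 0.947). Hnf4a, a transcription factor of the proximal tubule, was lower by 5.35 on the log2 scale (-5.35 ± 0.31). The bile acid receptor Nr1h4 (-3.89 ± 0.35) and the oxysterol receptor Nr1h3 (-2.73 ± 0.17) were lower too. The proximal markers fell in the same comparison, as given above.

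The sensors upstream of PGC-1 moved both ways. Among the 18 tested, 7 rose, 5 fell and 6 missed the threshold, with a median of 0.06. Foxo3, a stress-responsive transcription factor, was among the higher genes, but was well above background on 4 EGFP+ arrays and only 1 EGFP- array, so the size of its difference is set largely by signals at background. Nos3, the endothelial nitric oxide synthase, was lower (-2.15 ± 0.24), beside 5 of 5 endothelial markers. Mtor (-1.55 ± 0.40), the growth kinase, and Mapk14 (-1.19 ± 0.17), the p38 kinase, were lower as well, and Camkk2 (-1.17), a calcium-dependent kinase, and Prkaa2 (-0.43) completed the lower genes. The 2 catalytic subunits of AMP-activated protein kinase differed in direction, with Prkaa1 at 0.90 and Prkaa2 at -0.43.

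**Figure D3:**
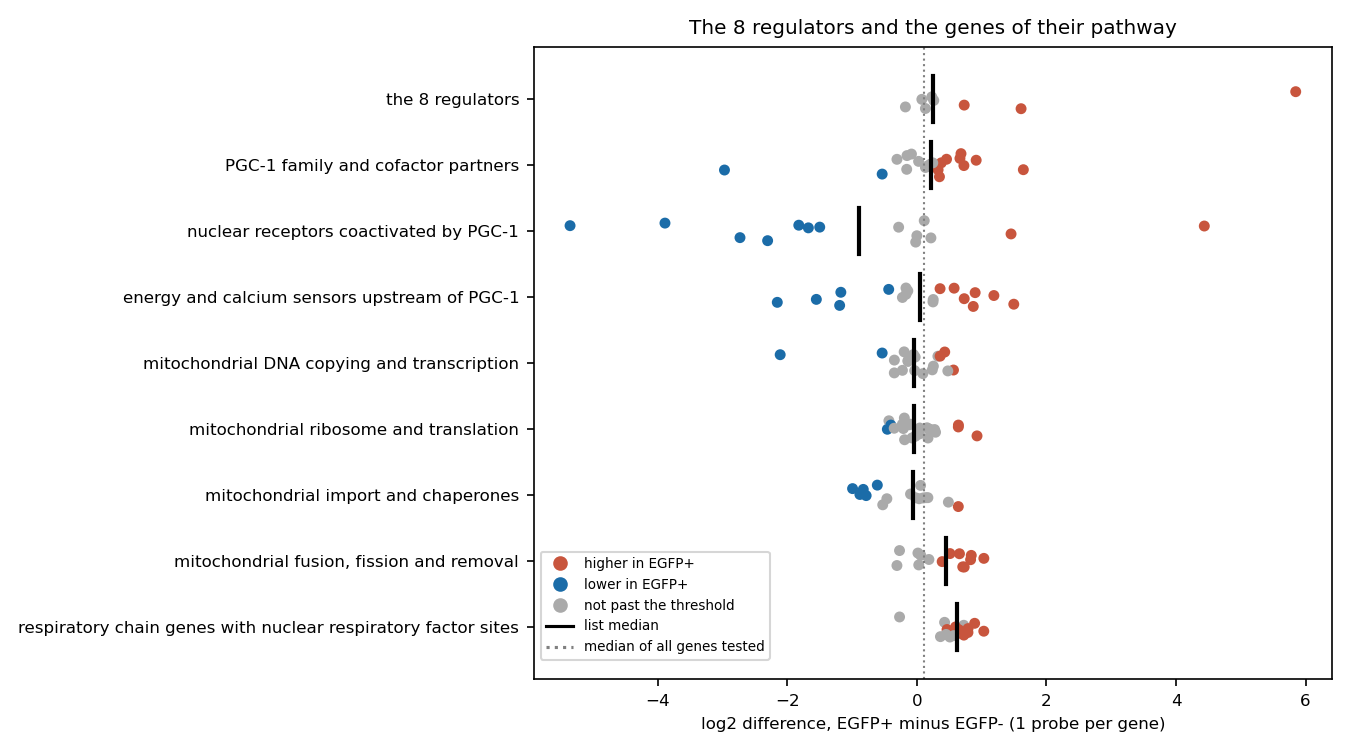
Log2 difference of EGFP+ minus EGFP- (horizontal axis) for each tested gene of the regulators and of 8 pathway lists, with red and blue points past the threshold as higher or lower, grey points not past it, a black bar for the list's median and a dotted line at the median of all genes, 0.11. The lists for fusion and fission and for the respiratory chain, which also holds other mitochondrial genes, have medians of 0.45 and 0.62 and no blue points. The nuclear receptors spread from -5.35 to 4.44.

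The machinery that Tfam and its partners serve showed few calls. Of 20 genes for copying and transcribing mitochondrial DNA, 3 rose, 2 fell and 15 missed the threshold, with a median of -0.04. Top1mt, the mitochondrial topoisomerase, was lower (-2.11 ± 0.13, adjusted p = 5.82e-08), as was Twnk, the replicative helicase (-0.54 ± 0.11). Ssbp1, the single-strand binding protein, was higher by 0.57 ± 0.14, Mterf2, a transcription regulator, by 0.43 ± 0.11 and Tk2, a thymidine kinase, by 0.36. Polrmt, the polymerase that Tfam and Tfb2m recruit, differed by -0.03 (adjusted p = 0.85), and Polg, the DNA polymerase, by -0.03. Blocking on the mouse gave 5 higher genes, and the count was 5 with quantile normalization, 6 with median centring and 1 without mouse 3.

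Of 22 genes for the mitochondrial ribosome and translation, 3 rose, 2 fell and 17 missed the threshold, with a median of -0.05. The higher ones were the ribosomal proteins Mrpl37 (0.93 ± 0.12), Mrps27 (0.64 ± 0.12) and Mrps16 (0.64 ± 0.16), and the lower ones Mrpl4 (-0.46 ± 0.18) and Mrps22 (-0.40). Of these genes 5 were higher with quantile normalization and 5 without mouse 4, and with median centring 0 were lower. Likewise the count of lower genes was 1 without mouse 1 and 0 without any 1 of the other mice. Of 16 import and chaperone genes, 1 rose, 5 fell and 10 missed the threshold, with a median of -0.06. The outer membrane receptors Tomm20 (-0.99 ± 0.13) and Tomm70a (-0.88 ± 0.21), the carrier chaperone Timm9 (-0.83 ± 0.30), the matrix chaperonin Hspd1 (-0.78 ± 0.26) and the processing peptidase subunit Pmpcb (-0.61) were lower. Tomm40, the channel of the outer membrane, was the higher one (0.64). Hspd1 and Pmpcb each had 3 ALL arrays with a value, since 1 spot was left out. With the mouse as a block, 2 were higher, and the lower genes were 2 with median centring, 2 without mouse 2 and 3 without mouse 3 or mouse 4.

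Of 14 genes for fusion, fission and removal, 8 rose, 0 fell and 6 missed the threshold, with a median of 0.45. Fundc1, a receptor for mitophagy, was higher by 1.03 ± 0.09, the mitofusins Mfn2 and Mfn1 by 0.84 ± 0.14 and 0.83 ± 0.21, and the fission factor Mff by 0.73 ± 0.10. Mfn2 is a known target of PGC-1. Of 16 genes listed under the respiratory chain for sites of the nuclear respiratory factors, 9 rose, 0 fell and 7 missed the threshold, with a median of 0.62. The list also holds Cs, Vdac1, Slc25a4 and Slc25a5, which are not part of the chain itself, and the sites were not checked here. Atp5g1, a subunit of the ATP synthase ring, was higher by 1.03 ± 0.17, Ndufs8 of complex I by 0.89 ± 0.17, Cs, citrate synthase, by 0.79 ± 0.15 and Cox5b of cytochrome oxidase by 0.79 ± 0.23. Cox5b had 3 arrays with a value per fraction, and Cs had 3 in ALL. Cycs, cytochrome c, with 3 arrays per fraction, differed by 0.72 (adjusted p = 0.156). With the mouse as a block, 1 of the list was lower. Among genes well above background on all 12 arrays, 5 were higher. That filter also drops a probe with a missing array. It left out the probes of Cox5b, Cox6c, Uqcrh, Slc25a4 and Cs, which were well above background on every array with a value.

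Markers of tissues in which PGC-1 is best known were mostly at background. Ucp1, Adipoq and Plin1 of fat and Ckm and Mb of muscle were not well above background on any of the 12 arrays, and Myh6, Actn2 and Ckmt2 of muscle were so on 1 array each. Of 3 tested muscle genes, 0 were higher and 1, Acta1, was lower in EGFP+. Of 2 tested fat genes, Fabp4 was lower (-0.76). The other was Cidea, a lipid droplet protein that PGC-1alpha controls in brown fat. It was well above background on 4 EGFP+, 2 ALL and 0 EGFP- arrays, with an SD of 0.74 in EGFP+ and 2.35 in ALL. The bound used for Perm1 put it at least 10.7-fold higher in EGFP+ than in EGFP- tubules. This bound rests on the scanner software's background subtraction. For the Perm1 bounds the fitted differences with normexp were smaller, but its offset keeps that run from deciding whether such bounds hold. The summed level of these 2 fat genes was 2.30 to 3.25 in EGFP+ and 2.55 to 5.48 in EGFP- tubules.

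The genes whose profile over the 12 arrays was most like that of each higher regulator were found by the root mean square difference of levels, each centred on its own mean, over 16625 other genes. For Ppargc1a (A_51_P279038), the nearest were a probe with no gene name here, A_51_P502068, at 0.09, then Slc2a1, the glucose transporter, at 0.11, Cnst, Bcl2 and Arid3a. For Ppargc1b (A_51_P294891) they were Stx6 at 0.10, Pias3, Tmem29, LOC627905 and LOC626832. For Perm1 (A_51_P322473) they were Batf3 at 0.19, Vstm2a at 0.25, Tox3, Cdca7l and Prom2, with differences from EGFP- of 5.47 to 5.91. These profiles share the same arrays.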

How the data were processed

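RNA of 12 samples (3 fractions of 4 mice) was hybridised to Agilent one-colour arrays of design 014868, read with Feature Extraction 9.5.3.1, per the file headers. The deposited scanner files give processed signals, linear intensities after the background subtraction of that software. Spots marked as outliers (66 to 516 per array) were left out, and spots of a probe were averaged on the log2 scale. Each array's 75th percentile over these probe averages (922 to 2270 as signal) was then subtracted, so the authors' deposited intensities became log2 levels here. The share of probes well above background was 53.9% to 65.6% per array. The number of arrays limits the precision. A table of values by the authors was not used: 0 of its 12 columns matched the scanner file of its own heading, and all 12 matched another fraction of the same mouse.

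Probes well above background on at least 4 arrays entered a limma 3.58.1 fit (lmFit, eBayes; R 4.3.3), 1 coefficient per fraction over 12 arrays, Benjamini-Hochberg adjusted over 25819 probes at 0.05. Errors are SE from this fit unless SD is named. Sex was tested on mouse means and on within-mouse differences. The fractions of a number come from the same animal, and deviations of same-mouse samples correlated by 0.23 to 0.81 over 12 pairs. The 3 slides were used as a block in an alternative. Names came from RefSeq accessions and symbols where matched. The script was tested on simulated data. Alternatives were normexp background (offset 50), quantile normalization, median centring, other filters, 1 probe per gene, slide or mouse as a block, and leaving out each mouse, which for the sex tests was added after seeing the data. Every member probe is named, as are up to 4 genes per list with the largest differences past the threshold and the 5 genes most alike. Members and lists were chosen with earlier results of these data known. Promoters were scanned in Python 3.11.15 and aligned with Biopython 1.88.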

Additional observations from a re-analysis of the deposited data

Results flagged for a closer look

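In 57 groups of 4 arrays, 2 held an array far from the other 3, and chance alone gives about 1 in 20. For Tfam A_52_P595104 in EGFP+ tubules, mouse 3 was lowest at 0.63, with the nearest array at 1.75. For Tfb1m A_51_P215324 in ALL tubules, mouse 4 was highest at -6.59, with the nearest at -7.56, and every array of this probe was at background.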

How the results depend on the processing

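The 6 probes of Ppargc1a, Ppargc1b and Perm1 that were past the threshold against EGFP- and against ALL and well above background on all 12 arrays stayed past it in every alternative run. Perm1 A_52_P542502, set against signals at background, gives no such support. The number of member probes called ranged from 6 to 8. With the mouse as a replicate block, 16627 probes differed between EGFP+ and EGFP- (14631 without it), and the block changed no member's call but that of Tfam A_52_P595104 given above. The following values turned sign. Tfam A_52_P351785 was at -0.0165 with slide as a block and at -0.0855 to 0.1386 with 1 mouse left out. Leaving out 1 mouse gave -0.0344 to 0.2494 for Nrf1 A_52_P8430 and -0.0581 to 0.2175 for Nrf1 A_52_P376269. Gabpa A_51_P364984 was at 0.0731 with normexp, 0.0682 with median centring and -0.1405 to 0.0470 with 1 mouse left out. For ALL against EGFP-, Perm1 A_52_P542502 was at 0.0241, and at 0.9030 with normexp, -0.0184 with median centring, -0.1365 with slide as a block and -0.3611 to 0.5913 with 1 mouse left out. Over all probes, EGFP+ against ALL gave 9269 calls with normexp (13931 otherwise). ALL against EGFP- gave 279, and 103 to 330 with 1 mouse left out (139 without mouse 1, 103 without mouse 2, 114 without mouse 3). Male against female gave 272, and 557 with normexp, 842 with median centring, 53 without a filter and 30 to 51 with 1 mouse left out. The dependence on sex gave 0, and 11 with quantile normalization, 19 with median centring and 48 on probes well above background on all arrays. The causes were not tested.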

Other observations

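Slc12a3 was taken as a yardstick for how much EGFP+ material the ALL fraction held. From EGFP+ to ALL the 5 DCT markers fell by unlike amounts, from 1.59 (Calb1) to 3.74 (Trpm6) on the log2 scale, with 3.01 for Slc12a3. Calb1 or Trpm6 would give another share, and the differences below depend on this choice. The share of EGFP+ signal that reproduces its ALL level, with the rest from EGFP-, was 15.8%, 13.9%, 12.5% and 7.86% in mice 1 to 4. With that share, the measured ALL level of Ppargc1a A_51_P279038 was below the computed one by 0.20 on the log2 scale (-0.20 ± 0.07, SD over 4 mice), and for Ppargc1a A_52_P5945 the difference was -0.10 ± 0.08. The Ppargc1b probes differed by -0.08, -0.11 and -0.21, and Perm1 A_51_P322473 by -0.48 ± 0.38, from -0.80 to 0.03 between mice. The 11 tested probes of the other 5 genes differed by -0.15 (Gabpa A_51_P364984) to 0.20 (Tfam A_52_P595104), a range that takes in the values of Ppargc1a A_52_P5945 and of the first pair of Ppargc1b probes. Perm1 A_52_P542502 is at background in ALL and EGFP- and is left out. These differences were not tested.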
